A study of Homo sapiens with 10 samples.

Results

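The clustered protocadherin genes were described in the pooled 3′-end peaks of IMR-32 cells, a human neuroblastoma line. They are the 53 protein-coding genes of chromosome 5 whose symbols start with PCDHA (15 genes), PCDHB (16 genes) or PCDHG (22 genes), all on the plus strand. A peak was taken when its summit lay between the start of the first gene and 5 kb past the end of the last one, in chr5:140786136-141517977 of GRCh38. This 732 kb region held 112 of the 178837 peaks in the list.

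All cells were IMR-32, transduced with pLKO.1 lentivirus made in HEK293T cells and selected with puromycin. The 10 libraries comprised CDK12 sh22, CDK12 sh98, CDK13 sh701, CDK13 sh704 and shGFP, a control shRNA without a human target, with 2 libraries each. CDK12 and CDK13 are kinases of the RNA polymerase II tail. The libraries were made by poly(A) 3′-seq (QuantSeq REV), in which priming with oligo(dT) places the start of each read at or next to a cleavage site. The libraries were processed in batches, downsampled to the smallest one and merged before 1 joint round of peak calling, so the list has no strand, no depth per library and no value per library. Knockdown and control cells, batches and replicates cannot be compared here, no error between replicates can be given, and the depth is known only as the pileup of each peak. All cells are of 1 line and no library of untransduced cells is among them.

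Clustered protocadherins are cadherin-type cell surface proteins whose combinations give single neurons a surface identity. In PCDHA and PCDHG, each gene has its own variable first exon with its own promoter, which is spliced to constant exons shared by the whole family, so that transcripts of different genes end at 1 common 3′ end. PCDHB genes lack such constant exons and each ends in its own 3′ untranslated region. A 3′-end assay therefore resolves single PCDHB genes but sees full-length PCDHA or PCDHG transcripts only as a family. Promoter choice differs from cell to cell, and a pooled lysate cannot tell few cells with much transcript from many cells with little.

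The height of a peak is given as the pileup at its summit, the number of distinct positions at which extended reads overlap there. It saturates at 200 and serves as a rough rank of signal. Over all chromosomal peaks the median pileup was 9, and over peaks in the window around an annotated transcription end site (TES) it was 15. The window runs from 200 bp upstream to 600 bp downstream of a TES. The markers of the labelled cell type were present: all 11 neuroblastoma markers had a TES peak, from PHOX2A (pileup 114) to ISL1 (16), with a median of 52, whereas 1 of 8 markers of other cell types had one (ALB, pileup 3).

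Of the 112 peaks, 5 lay in the constant exons of PCDHA and PCDHG, 22 in the variable exons, 17 in PCDHB exons and 57 in the space between exons. A further 10 lay in TAF7 and DIAPH1, genes of the minus strand, and 1 in an exon of PCDHB18P, a pseudogene. Per length the constant exons were densest, with 0.991 peaks per kb, followed by PCDHB exons with 0.260, variable exons with 0.152 and the space with 0.135. Median pileup followed a similar order, at 17 in constant exons, 13 in PCDHB exons, 9 in variable exons and 9 in the space. Peaks with a pileup of at least 20 numbered 1 in constant exons, 5 in PCDHB exons, none in variable exons and 4 in the space.

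Among the 53 genes, 44 had a peak in the window of an annotated TES, whereas 68.7% of the 20033 protein-coding genes had one. The count is carried by shared ends: all 37 PCDHA and PCDHG genes count through the constant exons, and 7 of 16 PCDHB genes through their own ends. Because the summit decides, PCDHB9 is not among these 7. Its peak of 27 had its edge 2 bp before the annotated end, but its summit, at chr5:141191229, lay outside the window. When ends in the constant exons were set aside, 21 of the 53 genes had a peak at an end of their own, namely 6 in PCDHA, 7 in PCDHB and 8 in PCDHG. This count fell to 11 with a window of 100 bp on each side, to 13 when the −log10 q-value had to reach 5, and to 2 when it had to reach 20. In all, 32 genes had a peak in their own exon or at an end of their own, and 21 had neither.

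The shared 3′ ends of both families were detected, and they differed in layout. The last constant exon of PCDHA, 2721 bp at chr5:141009627-141012347, held 4 peaks with pileups of 18, 16, 14 and 17 from 5′ to 3′. The last constant exon of PCDHG, 2029 bp at chr5:141510947-141512975, held 1 peak with a pileup of 27. PCDHA signal was thus spread over 4 peaks of similar height, and PCDHG signal was in a single one. No peak lay in the short first and second constant exons of either family.

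At the far end of PCDHA the 3′ edge of the peak came 1 bp past an annotated TES, and at PCDHG it came 4 bp past one. Both edges had AATAAA, the main signal for cleavage and polyadenylation, at a typical distance, starting 23 bp upstream in PCDHA and 28 bp upstream in PCDHG. The third PCDHA peak had ATTAAA, the commonest variant of that signal, starting 12 bp upstream. Its edge lay 79 bp before the nearest TES, with 6 A in the 10 genomic bases after it. The second PCDHA peak ended at an annotated TES (0 bp) without either signal 10 to 40 bp upstream. The first one lay 87 bp past an annotated TES, with 8 A in the 10 genomic bases after it and none of the 12 hexamers within 100 bp upstream. Such A-rich DNA can also be primed by oligo(dT) inside a transcript, and whether that occurred here was not tested. The sequences show the 2 family ends with the signal in capitals, each starting at the hexamer and running for 30 bases over the edge of the peak, and then the A-rich first peak of PCDHA with the 10 bases after its edge in capitals (GRCh38, plus strand).
PCDHA constant end, chr5:141012323-141012352: AATAAAtgaaaatggtggtatgaaagaaat
PCDHG constant end, chr5:141512954-141512983: AATAAAacgtttcttctgaaaagctgaacg
PCDHA constant exon, first peak, chr5:141010406-141010435: taattggtacaaggaaggcaAGAAAACAAA

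The ranks of these shared ends were moderate. The PCDHG end, with 27, stood at or above the highest TES peak of 63.3% of the protein-coding genes with a TES peak, and the tallest PCDHA constant peak, with 18, of 36.1%. The median over those genes was 23. That tallest PCDHA peak is the A-rich first one, and the peak at the far end, with 17, stood at or above 32.8%. Saturation of the pileup and the spread of PCDHA over several peaks both enter these ranks, so they do not order the 2 families by amount of RNA.

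Of the 16 PCDHB genes, 12 had a peak in their exon, a share of 75% (95% Wilson interval 50.5% to 89.8%, counting error only). Of the 1117 protein-coding genes with 1 exon in the canonical transcript, 28.2% had one. PCDHB10 had the tallest peak, with a pileup of 30 and a fold enrichment of 11.9 over the local background. PCDHB9 followed with peaks of 27 and 17, PCDHB16 with 25, PCDHB14 with 25 and 12, and PCDHB11 with 20. These 5 genes held all 5 PCDHB exon peaks of at least 20.

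Lower peaks were found in PCDHB2 (14 and 10), PCDHB13 (12 and 13), PCDHB15 (13), PCDHB12 (12 and 7), PCDHB7 (8), PCDHB5 (6) and PCDHB6 (5). No exon peak was found in PCDHB1, PCDHB3, PCDHB4 and PCDHB8. Values also varied along the chromosome. The first 8 genes of the array, PCDHB1 to PCDHB8 in order, held 5 exon peaks in 4 genes, none above 14. The last 8, PCDHB16 and PCDHB9 to PCDHB15, held 12 exon peaks, and each of the 8 genes had one with a highest pileup between 12 and 30. The ranges overlap, since PCDHB2 with 14 stood above PCDHB12, PCDHB13 and PCDHB15. The division into 8 and 8 was made after the values were seen, and it is a description without a test.

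**Figure D1:**
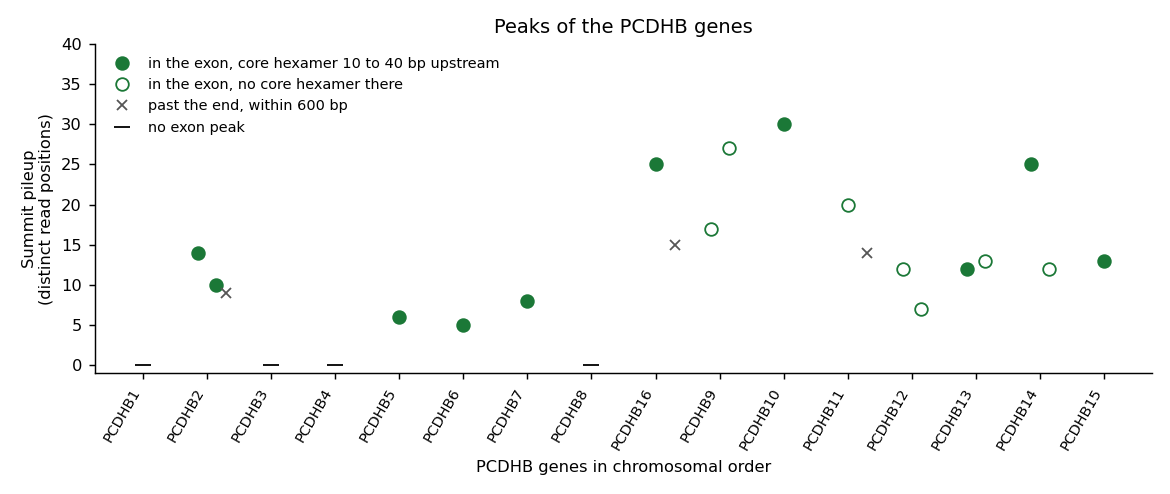
Summit pileup (vertical axis, distinct read positions) of each peak of the 16 PCDHB genes in chromosomal order (horizontal axis); filled circles have AATAAA or ATTAAA starting 10 to 40 bp upstream of the 3′ edge, open circles do not, crosses lie past the annotated end and dashes mark genes without an exon peak. The 4 genes without a peak are all among the first 8, and PCDHB10 is highest with 30. In peaks wider than the 100 bp read extension, the hexamer at the edge cannot be tied to the summit pileup.

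Of the 17 PCDHB exon peaks, 10 carried AATAAA or ATTAAA starting 21 to 37 bp upstream of the 3′ edge, and none of those 10 was A-rich downstream. The 10 peaks lay in 9 genes, PCDHB2 (both peaks), PCDHB5, PCDHB6, PCDHB7, PCDHB16, PCDHB10, PCDHB13, PCDHB14 and PCDHB15. Their median pileup was 12.5, and that of the other 7 was 13. The hexamer was read at the edge and the pileup at the summit, and in wide peaks the 2 can belong to different sites. This holds for the PCDHB16 peak (278 bp wide), which had the signal. It also holds for the PCDHB9 peak of 27 (356 bp) and the PCDHB11 peak (393 bp), which did not. These medians therefore do not relate the signal to the height. A-rich, meaning at least 7 A in the 10 genomic bases after the edge, were 3 of the 17 (17.6%, 6.19% to 41.0%), and of all TES peaks of the list 24.2% were. They were the PCDHB9 peak of 17, with 9 A, the PCDHB12 peak of 7, with 8 A, and the PCDHB14 peak of 12, with 7 A. The sequences are given for the genes whose single or tallest peak had the signal, since they set the edge of the peak against the annotated end; the hexamer is in capitals, and each run of 30 bases starts with it.
PCDHB2, chr5:141097352-141097381: AATAAAtgtaaattttctttgtattctaat
PCDHB5, chr5:141138100-141138129: AATAAAatcaagtattaattttattttcta
PCDHB6, chr5:141153262-141153291: AATAAAtatttgctgaatgttactaacatt
PCDHB7, chr5:141175450-141175479: ATTAAAtgtaagtcttgtttgagatatttt
PCDHB16, chr5:141185971-141186000: ATTAAAaaatcagaggtccctgttatattt
PCDHB10, chr5:141195620-141195649: AATAAAacattttgaaatgtgtggttgaga
PCDHB14, chr5:141226270-141226299: AATAAAaagcgttgctgaatctgggtcgaa
PCDHB15, chr5:141248210-141248239: AATAAAcataactctaattctgaaattacc

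Positions of 2 kinds were seen among them. In PCDHB6 and PCDHB10 the edge of the peak came within 2 bp of the annotated end, 1 bp past it and 2 bp before it. In the other kind the edge lay inside the annotated exon, 234 bp before the nearest annotated end in PCDHB16, 493 bp in PCDHB5, 909 bp in PCDHB7 and 1135 bp in PCDHB15. The PCDHB16 peak was 278 bp wide, with its summit at chr5:141185790 and its edge at chr5:141185992. With reads extended to 100 bp, the ATTAAA at that edge cannot be tied to the pileup of 25. The 2 peaks of PCDHB13 lay 1957 bp and 1156 bp before its only annotated end, and no peak was found at that end. In PCDHB2 one edge came 11 bp past the end of the exon and the other 115 bp past the end of a shorter transcript. In PCDHB14 the tallest edge lay 202 bp past the end of a shorter transcript, and the second lay 91 bp past the end of the gene.

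Some peaks lay past annotated ends. Peaks of 9, 15 and 14 had their summits within 600 bp downstream of PCDHB2, PCDHB16 and PCDHB11. Both of the latter were A-rich, with 9 and 10 A, whereas the PCDHB2 one had 4 A and ATTAAA 17 bp upstream. Between PCDHB9 and PCDHB10, a peak of 24 had its summit 601 bp past the end of PCDHB9, just outside the window. Its edge had AATAAA upstream and 7 A in the next 10 bases, and few peaks had both features. The peak was 290 bp wide, with the summit at chr5:141192142 and the edge at chr5:141192400. With reads extended to 100 bp, these features of the edge cannot be tied to the pileup of 24. That peak ends inside PCDHB10 and lies upstream of that gene's own peak of 30.

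Among the variable exons, 7 of 15 PCDHA genes (46.7%, 24.8% to 69.9%) and 8 of 22 PCDHG genes (36.4%, 19.7% to 57.0%) had a peak in an exon of their own. Both intervals include the 28.2% of genes with 1 exon, but the sets are unlike. That share counts the canonical exon only, whereas these counts of spliced genes also take in exons of other annotated transcripts. Highest pileups were 5 to 13 in PCDHA, with a median of 8, and 6 to 16 in PCDHG, with a median of 10.5. In PCDHA the highest belonged to PCDHA12 (13), PCDHA4 (12), PCDHA10 (12), PCDHA5 (8) and PCDHA9 (8). In PCDHG they belonged to PCDHGA12 (16), PCDHGB7 (14), PCDHGA5 (11), PCDHGB6 (11) and PCDHGA6 (10). All of them were below the tallest peaks of the PCDHB array. One peak, of 5, lay in an exon that transcripts of PCDHA2 and PCDHA3 share and counts for both.

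Most of these peaks lay outside the canonical exon that joins the constant region. Only 6 of the 22 fell in a canonical first exon, and 16 fell in exons of other annotated transcripts of these genes. PCDHA10 alone held 5 peaks, of which 4 lay in the long unspliced form that runs past its first exon. In 6 of the 22 the edge came within 10 bp of an annotated end, in PCDHA2 and PCDHA3 (4 bp before), PCDHA4 (9 bp past), PCDHA10 (2 bp before), PCDHGA1 (2 bp before), PCDHGA5 (2 bp past) and PCDHGA6 (2 bp past). All 6 had AATAAA or ATTAAA starting 10 to 40 bp upstream, none was A-rich, and their median pileup was 9.5. The PCDHA10 one was 215 bp wide, with its summit at chr5:140868096 and its edge at chr5:140868238. Its AATAAA thus cannot be tied to its pileup of 9. Read on the minus strand instead, the peak of PCDHA2 and PCDHA3 had 8 A after the opposite edge, and its strand is not known. Of the 6 peaks, the 4 with AATAAA are printed with that hexamer in capitals, as ends annotated outside the constant exons.
PCDHA10, chr5:140868219-140868248: AATAAAaactcatctagatcaatagacttt
PCDHGA1, chr5:141334621-141334650: AATAAAagctgtttcccaattccggtggtt
PCDHGA5, chr5:141367763-141367792: AATAAAtgtaaatatgtcacacacctggca
PCDHGA6, chr5:141379617-141379646: AATAAAatatttctctgatggaaaaactac

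By contrast, the highest variable exon peak of PCDHA, in PCDHA12, lay in the canonical exon, 1871 bp before the nearest annotated end, and had 9 A in the 10 bases after its edge. The highest of PCDHG, in PCDHGA12, also lay in the canonical exon, 2045 bp before the nearest annotated end, with 6 A and no AATAAA or ATTAAA at 10 to 40 bp. Of the 22 peaks 6 were A-rich (27.3%, 13.2% to 48.2%), beside 24.2% of TES peaks, but only 7 of the 22 lay in a TES window. The A-rich ones included the canonical exon peaks of PCDHA10, PCDHA12, PCDHGA5 and PCDHGA10, with 8, 9, 8 and 8 A. None of these had AATAAA or ATTAAA at 10 to 40 bp. The other A-rich peaks, in PCDHA9 and PCDHGA5, lay outside canonical exons. PCDHA7 had no exon peak but a peak of 16 past the end of its short form. Its edge lay 617 bp past that end, with 2 A after the edge and no hexamer. Read on the minus strand instead, this peak had 8 A after the opposite edge, and its strand is not known.
PCDHA12, last 20 bases of the peak and in capitals the 10 after it, chr5:140875999-140876028: agaattttgagcttaaaataAAAACAAAAA

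The C-type genes PCDHAC1, PCDHAC2, PCDHGC3, PCDHGC4 and PCDHGC5 lie closest to the constant exons and follow other rules of promoter choice than the alternate genes. None of the 5 had a peak in its own exon. Downstream of PCDHAC1, however, 3 peaks followed each other. The first, with a pileup of 11, lay in the window of its short end, with AATAAA 28 bp upstream of an edge 319 bp past that end. The second had 11 as well and no hexamer. The third had 31, the second highest pileup of the space between exons. Its edge, 1442 bp past the annotated end of PCDHAC1, had AATAAA 26 bp upstream and 4 A after it. This peak was 277 bp wide, with its summit at chr5:140931684 and its edge at chr5:140931887. Reads were extended to 100 bp, so the AATAAA at the edge cannot be tied to the pileup of 31. No exon of a member covers this peak. PCDHAC2, PCDHGC4 and PCDHGC5 had no peak at an own end either, nor had PCDHGC3. The 2 PCDHAC1 sites with AATAAA are shown.
first peak past PCDHAC1, chr5:140930737-140930766: AATAAAtttacatatgttaaaattttctgt
last peak past PCDHAC1, chr5:140931862-140931891: AATAAAatatttattgctttcattttattt

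The 57 peaks of the space between exons included the strongest of the whole region. The highest, with a pileup of 65 and a fold enrichment of 25.5, lay in the PCDHG intron after the first constant exon, at chr5:141495813-141496114, and began 948 bp past that exon. It was 302 bp wide, and its pileup was 2.41 times that of the PCDHG end. In the whole list 218 chromosomal peaks reached at least 65, and 168 of them lay in TES windows, 24 in exons, 19 in introns and 7 between genes. The peak had no hexamer within 100 bp upstream and no A in the 10 bases after its edge. Read on the minus strand instead, it had 3 A in the 10 bases after the opposite edge. The summit, at chr5:141495990, lay more than the 100 bp read extension from either edge. These features of the edges therefore cannot be tied to the pileup of 65, and the strand of the peak is not known.

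The interval was rich in C and T. These bases made up 79.5% of its plus strand (T 46.4%, C 33.1%), the highest share among the 112 peaks, followed by 76.0% in a peak of 7 downstream of PCDHB15, and its longest run of C and T had 16 bases. On the opposite strand these are runs of A and G. It had no other genomic match of at least 90% identity over at least 75 bases. The 30 bases around the longest run, which holds the summit, are printed with the run in capitals.
PCDHG intron peak, chr5:141495978-141496007: ttctttaTCTCTCTTTTTCTTTTatcttgt

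The next highest were the peak of 31 past PCDHAC1, a peak of 26 in the PCDHA intron after the second constant exon, the peak of 24 between PCDHB9 and PCDHB10, and a peak of 17 farther along the same PCDHA intron, towards the last constant exon. The peak of 26 began 309 bp past the exon and ended in a long stretch of A and G, with 8 A in the 10 bases after its edge and no AATAAA or ATTAAA at 10 to 40 bp. The peak of 17, with its edge 2928 bp before the nearest annotated end, had 6 A there and no such signal. Both families thus had a strong intronic peak close behind a short constant exon. In the direction of the gene, the bases after the edge were A-rich for the PCDHA peak and not for the PCDHG peak. For the wide PCDHG peak that edge cannot be tied to the summit.
PCDHA intron peak, last 20 bases and in capitals the 10 after it, chr5:140982977-140983006: agaaagagaaaaagaaggaaAGAAAGAAAA

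Introns of PCDHA and PCDHG, counted without exons and TES windows, held 18 peaks in 144 kb (125 per Mb) and 14 peaks in 83.1 kb (169 per Mb). The introns of all protein-coding genes held 87.9 per Mb, detected or not. In the space between exons 25 of 57 peaks were A-rich (43.9%, 31.8% to 56.7%), whereas 70.3% of the 103173 intronic peaks of the list were. When the definition was a run of 25 bases, 3 or fewer of them other than A, in the next 50 bp, the share was 5.26% beside 8.83% of intronic peaks, and with the 10 bases after the summit it was 5.26% beside 3.45%, so the lower share in the space did not hold at the summit. On the same intronic definition, 6 of 18 PCDHA peaks (33.3%, 16.3% to 56.3%) and 10 of 14 PCDHG peaks (71.4%, 45.4% to 88.3%) were A-rich. The PCDHG share was thus close to that of the list and the PCDHA share was below it, with intervals that overlap each other.

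**Figure D2:**
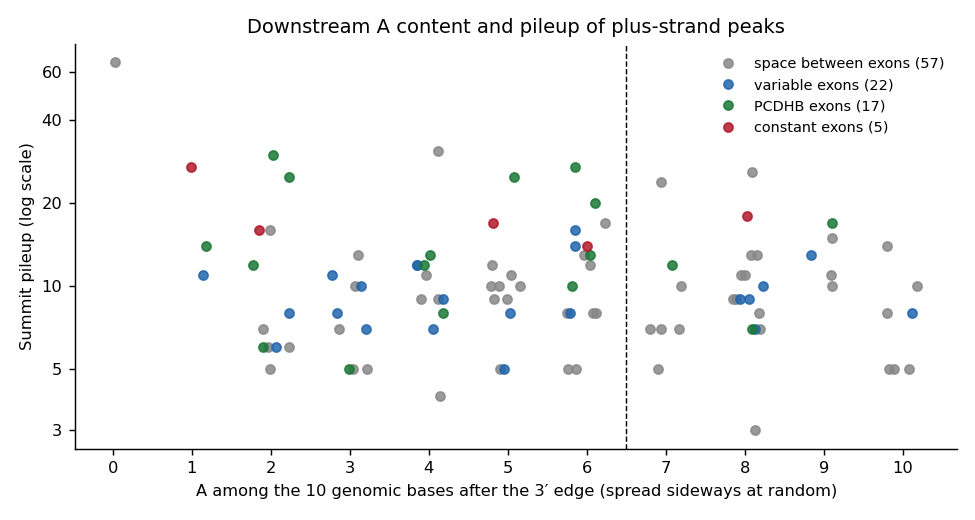
Summit pileup (vertical axis, log scale, distinct read positions) of the 101 plus-strand peaks in exons and in the space between them against the number of A among the 10 genomic bases after the 3′ edge (horizontal axis, spread sideways at random to separate points); the dashed line marks the limit of 7 A. The peak of 65 has 0 A after its edge, and A-rich peaks reach 26 at most. In peaks wider than the 100 bp read extension, such as that of 65, the edge and the summit can belong to different sites.

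Over all 112 peaks, any of the 12 hexamers was found within 100 bp upstream in 83 (74.1%, 65.3% to 81.3%), against 56.4% of the 146529 peaks of the list that could be given the strand of the annotated genes they lie in. AATAAA or ATTAAA starting 10 to 40 bp upstream was found in 43 (38.4%, 29.9% to 47.6%), against 21.7% of all such peaks and 48.8% of TES peaks. By class, it was found in 10 of 17 PCDHB exon peaks (58.8%, 36.0% to 78.4%), 3 of 5 constant exon peaks, 10 of 22 variable exon peaks (45.5%, 26.9% to 65.3%) and 17 of 57 peaks of the space (29.8%, 19.5% to 42.7%). The PCDHB share was near that of TES peaks, and the share in the space lay between that of all peaks and that of TES peaks. Of the 12 plus-strand peaks with an edge within 10 bp of an annotated end of a member, 10 had the signal and none was A-rich, and of 35 A-rich plus-strand peaks 4 had it.

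Close relatives share sequence, and reads that mapped to as many as 20 places were kept. Of the 112 peaks, 17 had another match in the genome of at least 90% identity over at least 75 bases. In 2 peaks the single other match lay in an exon of a close relative. The PCDHB7 peak matched a stretch of PCDHB12 at 90.7% identity over 118 bases, and the PCDHGB7 peak matched PCDHGB6 at 97.3% over 111 bases. The PCDHGB7 pileup of 14 may therefore hold reads of PCDHGB6, and this was not tested. One of the 2 PCDHB9 peaks, the one of 27, also had other matches, so that PCDHB9 without it rests on the peak of 17. The exon peaks of PCDHB10, PCDHB14, PCDHB16 and PCDHB11, all constant exon peaks and the peak of 65 had none. The peak of 14 past the end of PCDHB11 had 43423.

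Other genes of the region held 11 peaks. TAF7, a subunit of the general transcription factor TFIID, runs on the minus strand between the PCDHB and PCDHG arrays and held 9. Those in its exons had pileups of 23, 14, 18 and 29, and those in its introns 5 to 12. The peak of 23 had AATAAA 22 bp upstream on the minus strand. DIAPH1, a formin that assembles actin filaments, ends within 5 kb past PCDHG on the minus strand, and its end had a peak of 28 with AATAAA 28 bp upstream. The tallest peaks of these ordinary genes, 28 and 29, were close to the PCDHG end (27) and PCDHB10 (30). The TAF7 peak of 29, however, was A-rich on the minus strand, with 7 A, and had no AATAAA or ATTAAA at 10 to 40 bp. It was 233 bp wide, with its minus-strand edge at chr5:141319559 and its summit at chr5:141319734. These features of the edge thus cannot be tied to the pileup of 29. The pseudogene PCDHB18P, between PCDHB14 and PCDHB15, had a peak of 6 with AATAAA 29 bp upstream.

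For context, other genes tied to this family were read at their ends in the same list. Of 12 non-clustered protocadherins, which are single genes with the same type of extracellular domain, 9 had a TES peak, with a median pileup of 9, and 68.7% of all protein-coding genes had one. PCDH18 (29) and PCDH8 (23) were highest and PCDH7 (5) lowest, and PCDH11X, PCDH12 and PCDH15 had none. All 13 genes listed for promoter choice and chromatin loops in the clusters, among them the insulator protein CTCF (30) and subunits and loaders of cohesin, had a TES peak, with a median of 26, from NIPBL, the cohesin loader (39), to DNMT3B, a DNA methyltransferase (10). All 5 partners in processing and signalling had one as well, with a median of 24, from the kinase WNK1 (44) to the kinase PTK2B (12).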

How the data were processed

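Poly(A) 3′-seq reads of 10 IMR-32 libraries were processed by the authors, who mapped them to GRCh38 with STAR 2.5.1b, keeping reads with up to 20 positions, downsampled the libraries, merged them and called peaks with MACS2 2.1.1, extending reads to 100 bp. SAMtools and deepTools 2.5.4 are also listed in the submitters' processing notes. The deposited list gives for each peak the fold enrichment, a ratio of the summit pileup to the local background, the −log10 p-value and −log10 q-value, and a score derived from the q-value by the authors. Strand-specific coverage tracks named in the labels were not analysed here. No column of other series was present (0).

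The pileup was recovered as the whole number that gives the deposited fold and p-value (largest gap 0.000168 in −log10 p). Recovery, hexamer search and A stretches were tested on simulated data, where all 4039 pileups and all 1000 planted hexamers were found. Exons and ends are those of GENCODE 44. A base shared by exons of at least 3 genes of a family was called constant. Sequence was read on the plus strand, except in TAF7 and DIAPH1, at the 3′ edge, and an A-rich peak has at least 7 A in the next 10 bases. In peaks wider than the 100 bp extension, the edge and the summit can belong to different sites. The 12 hexamers are those of the study's methods, and a match was searched within 100 bp upstream. Other genomic copies were found with BLAST 2.17.0. Python 3.11.15, numpy 2.4.6, scipy 1.17.1, pandas 2.3.3, pysam 0.24.0, samtools 1.23.1 and matplotlib 3.10.9 were used.

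Named were every PCDHB gene, both constant regions, the C-type genes, the 5 highest variable exons of PCDHA and of PCDHG, the 5 highest peaks of the space, other genes of the region with a peak, and the listed related genes; peaks at annotated short ends and the PCDHA7 peak were added after their values were seen. The members and gene lists were chosen with earlier results of these data known. No test was run, because 1 pooled list has no replicates and no groups. Shares carry 95% Wilson intervals, which cover counting error only, and neither peaks nor genes are replicates. Tried as alternatives were other peak positions, q-value thresholds, TES windows and transcript sets, peaks joined within 100 bp, and other sequence definitions.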

Additional observations from a re-analysis of the deposited data

How the results depend on the processing

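No paired analysis was possible because 1 joint list replaces the values of single libraries, and no replicate could be left out for that reason. A −log10 q-value of at least 20 kept 1 peak in constant exons (of 5), 0 in variable exons (of 22), 2 in PCDHB exons (of 17, in PCDHB10 and PCDHB14) and 3 in the space (of 57). It left 24 genes with a TES peak (of 44), 2 at an own end (of 21) and 12.5% of PCDHB genes with an exon peak (of 75%). A threshold of 5 left 37 peaks in the space and 13 genes with a peak at an own end, and a window of 100 bp on each side of the TES left 11. Exons of canonical transcripts, chosen after seeing the data, held 6 variable exon peaks in place of 22. The A-rich share of the space, 43.9%, was 5.26% with a stretch of 25 bases, 5.26% at the summit in place of the edge and, chosen after seeing the data, 7.02% when read on the minus strand. The hexamer share, 74.1%, was 50.9% for AATAAA and ATTAAA alone, 59.8% within 50 bp and 51.8% at the summit. In each case the alternative uses fewer peaks, a narrower definition or other bases. The other alternatives stayed within 1.5 times the count or within the interval of the share. Read strand is assumed from the annotated genes, and antisense transcripts cannot be told apart. Of the 102 peaks outside TAF7 and DIAPH1, 9 were A-rich on the minus strand only.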
